A study of Mus musculus with 36 samples.

Results

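H3K9ac peaks within 1 kb of a transcription start site that were higher in CSE knockout (KO) than in wild-type (WT) aortic smooth muscle cells are described here. They are the 434 peaks of the authors' deposited H3K9ac table whose annotation was a promoter within 1 kb and whose KO value exceeded the WT value, so the members were chosen by the measured H3K9ac difference itself. The table lists 8115 peaks, 2260 of them within 1 kb of a start site, so that the 434 peaks were 19.2% of the listed start-site peaks and the other 1826 were lower in KO. The 434 peaks were annotated to 406 genes.

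The knockout cells were primary aortic smooth muscle cells of mice with a global, whole-body knockout of CSE, and the controls were the same kind of cells from C57BL/6N wild-type mice. Every sample of both genotypes, immunoprecipitated or input chromatin, was given 1 µM angiotensin II (Ang II) for 24 h, so no value here describes unstimulated cells. Chromatin immunoprecipitation followed by sequencing (ChIP-seq) was done for H3K9ac, H3K9me3 and H3K4me3, with 36 samples in 12 groups of 3. The labels do not say whether the 3 samples of a group came from separate animals or cultures, and no source used here gives the age or sex of the animals. The values are the authors' own comparison, with 1 value per genotype and none per sample, so the depth of each sample is unknown and the spread between replicates could not be computed. The authors' p-value of each peak carries what is known here of that spread, which may be technical.

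CSE, cystathionine gamma-lyase, is the product of the Cth gene and makes hydrogen sulfide from cysteine in vascular smooth muscle. Angiotensin II is a vasoconstrictor peptide that also drives growth, inflammatory and matrix responses of these cells. Acetylation of lysine 9 of histone H3 is placed by acetyltransferases such as GCN5 and PCAF and removed by histone deacetylases. It marks the nucleosomes that flank active start sites, where proteins with bromodomains or YEATS domains bind it, and in general it goes with transcription of the gene. Cth had 0 listed peaks for H3K9ac, 0 for H3K9me3 and 0 for H3K4me3, so the knockout itself could not be checked in these tables.

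The sequences under some of these peaks are shown first, because a start-site peak covers the DNA from which its gene is read. RefSeq promoter windows (GRCm38.p6, 250 bases before and 50 bases after the start) were found by symbol for 262 of the 406 genes, or 64.5%. Among the 188 peaks that touched a start site and had a window in the table, 146 overlapped a window of their own gene. The first 4 sequences belong to the peaks of smallest FDR that had a window under the peak and a gene on the lists used below. Bst2, an interferon-induced membrane protein that tethers budding virus, and Spp1, the secreted protein osteopontin, were added, after their values were seen, as the first by FDR with such a window on the interferon and synthetic smooth muscle lists. Each is written 5′ to 3′ on the strand of its gene, with motif matches in capitals. The windows are chrX:36328159-36328458 (plus strand) for Lonrf3, chr7:24370013-24370312 (plus) for Kcnn4, chrX:133688944-133689243 (minus) for Pcdh19, chr19:20601718-20602017 (plus) for Aldh1a1, chr8:71537423-71537722 (minus) for Bst2 and chr5:104434861-104435160 (plus) for Spp1.
Lonrf3: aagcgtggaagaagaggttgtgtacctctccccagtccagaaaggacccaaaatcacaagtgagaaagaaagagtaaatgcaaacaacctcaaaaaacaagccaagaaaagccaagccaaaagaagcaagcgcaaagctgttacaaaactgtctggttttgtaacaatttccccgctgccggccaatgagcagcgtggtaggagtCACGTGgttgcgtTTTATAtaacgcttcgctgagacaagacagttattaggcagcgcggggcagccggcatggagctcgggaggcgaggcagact
Kcnn4: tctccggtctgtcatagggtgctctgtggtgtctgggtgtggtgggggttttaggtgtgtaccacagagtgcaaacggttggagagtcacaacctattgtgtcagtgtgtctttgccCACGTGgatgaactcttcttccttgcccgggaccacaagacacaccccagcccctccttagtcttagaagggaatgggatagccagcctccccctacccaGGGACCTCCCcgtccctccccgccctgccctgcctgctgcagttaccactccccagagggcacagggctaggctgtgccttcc
Pcdh19: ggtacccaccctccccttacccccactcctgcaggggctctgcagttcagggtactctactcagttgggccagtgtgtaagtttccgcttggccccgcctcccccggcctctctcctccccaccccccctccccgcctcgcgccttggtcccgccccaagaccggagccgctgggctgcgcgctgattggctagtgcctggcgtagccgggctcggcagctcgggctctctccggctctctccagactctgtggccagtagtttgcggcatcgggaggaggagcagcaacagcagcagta
Aldh1a1: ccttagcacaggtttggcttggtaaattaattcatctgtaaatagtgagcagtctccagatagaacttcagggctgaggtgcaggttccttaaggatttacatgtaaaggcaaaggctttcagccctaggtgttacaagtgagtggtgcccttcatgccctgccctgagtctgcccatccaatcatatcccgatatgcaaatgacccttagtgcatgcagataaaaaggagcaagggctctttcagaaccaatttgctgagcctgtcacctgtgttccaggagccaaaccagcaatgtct
Bst2: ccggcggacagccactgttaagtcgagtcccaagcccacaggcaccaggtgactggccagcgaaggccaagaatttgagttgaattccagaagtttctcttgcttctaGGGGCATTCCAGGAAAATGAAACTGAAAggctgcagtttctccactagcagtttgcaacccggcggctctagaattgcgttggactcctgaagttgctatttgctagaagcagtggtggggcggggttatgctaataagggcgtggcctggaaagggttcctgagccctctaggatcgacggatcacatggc
Spp1: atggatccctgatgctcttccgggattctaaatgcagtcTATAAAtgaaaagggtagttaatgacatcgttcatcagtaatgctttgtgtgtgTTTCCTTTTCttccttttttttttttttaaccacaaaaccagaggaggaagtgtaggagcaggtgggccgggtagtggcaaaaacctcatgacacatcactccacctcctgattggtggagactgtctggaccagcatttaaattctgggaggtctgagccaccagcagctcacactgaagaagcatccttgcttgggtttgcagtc

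The motifs searched on both strands were the TATA box (TATAAA), AP-1 (TGANTCA), CRE (TGACGTCA), the antioxidant response element core (TGACNNNGC), STAT (TTCNNNGAA), the E-box (CACGTG), and the interferon-stimulated response element (ISRE), the CArG box and the NF-kB motif in their usual forms. The ISRE was added to the search after the values were seen. Of all 32851 windows in the RefSeq table, 13.6% held the TATA box, 7.81% AP-1, 1.79% CRE, 12.4% the antioxidant core, 8.30% STAT, 3.44% ISRE, 7.15% the E-box, 1.63% the CArG box and 8.46% NF-kB. The Bst2 window had the densest run of matches among the 6. Its 1 NF-kB match began 142 bases before the start, a STAT match 136 bases before it, and ISRE matches began 130 and 124 bases before it, so that neighbouring matches overlapped. Kcnn4 had an NF-kB match 33 bases before the start and an E-box 133 bases before it. Lonrf3 had a TATA match 32 bases before the start, on the strand opposite to the gene (TTTATA as printed), and an E-box 45 bases before it. Spp1 had a TATA match 211 bases before the start and an ISRE match, on the opposite strand, 157 bases before it. The windows of Pcdh19 and Aldh1a1 held no match, which says only that these letters are not in them. A match describes the letters only, and which proteins bound was not measured.

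The 6 windows differed in base composition. The Pcdh19 window had 67.7% G and C with 18 CpG pairs, and the Lonrf3 window 49.7% with 14 pairs. The Aldh1a1 window had 47.0% G and C and 1 CpG pair, an observed-to-expected CpG ratio of 0.0604, against a median ratio of 0.384 over all windows in the table. Bst2 had 11 pairs, Kcnn4 had 6 and Spp1 had 3. A check of composition or motifs over all the genes is void, because under 80% of them had a window in the table.

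The 434 peaks ran over a wide range of signal. In the authors' deposited table, their H3K9ac signal on a log2 scale ranged between 3.77 and 11.99 in KO (median 6.56) and between -0.21 and 10.91 in WT (median 5.43). The authors' deposited table gave a median log2 fold change (KO over WT) of 1.18, with an interquartile range of 0.91 to 1.60, or a median fold of 2.26. Of the 434 peaks, 290 differed at least 2-fold, 56 at least 4-fold and 20 at least 8-fold. These values chose the peaks and are given as a description. The authors' deposited table is itself a selection, at a p of 0.05 by its title and with 0.000101 as the smallest listed p, so it does not say how many of all H3K9ac peaks differed. The authors' false discovery rate (FDR) was under 0.05 in 98 of the 434 peaks, or 22.6%, where the same was true of 16.6% of all listed H3K9ac peaks in either direction. Since the rule used this same comparison, nothing is read from that count. Of all listed H3K9ac peaks, wherever they lay, 22.8% were higher in KO. In cultured cells pooled for ChIP, more cells carrying the mark and more of the mark per cell cannot be told apart.

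**Figure D1:**
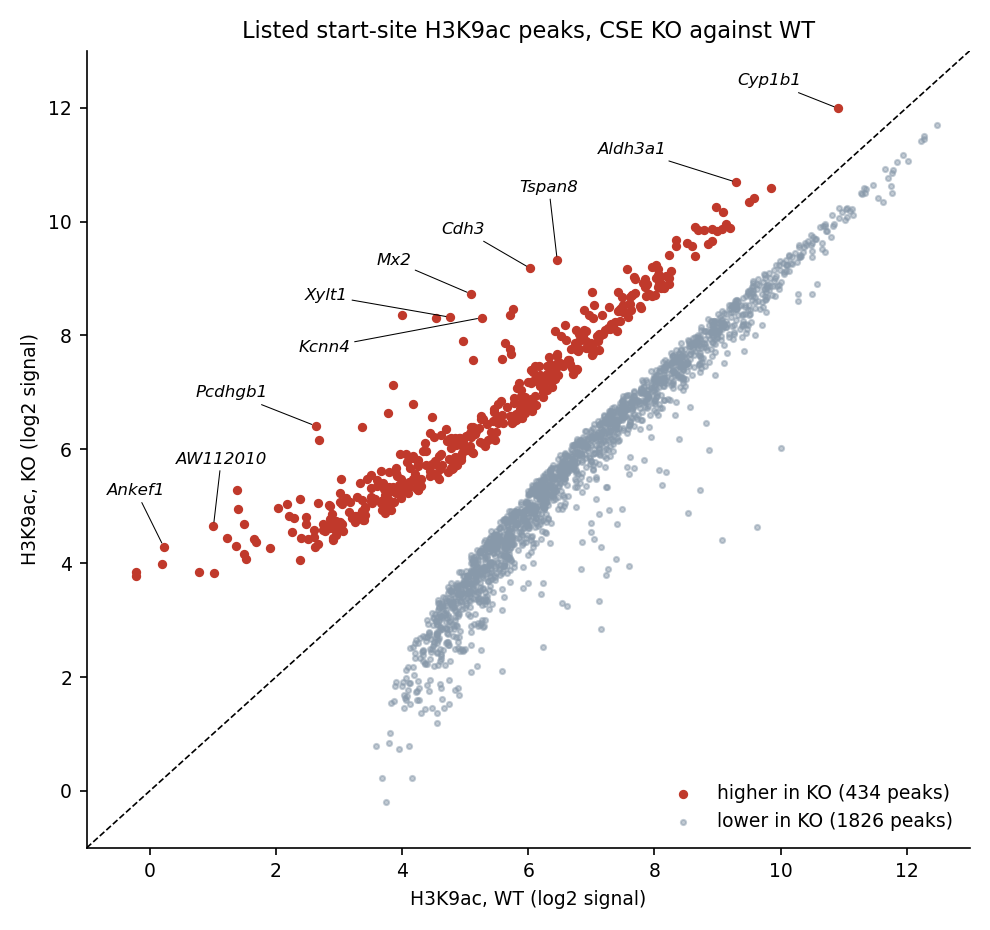
H3K9ac signal on a log2 scale in KO (vertical) and WT (horizontal) of every listed start-site peak, 1 point per peak, with the line of equality dashed. The 434 higher peaks reach 11.99 in KO at Cyp1b1, the gap on both sides of the line is the authors' selection, and the peaks far above the main band include Mx2, Cdh3, Kcnn4, Xylt1 and Tspan8.

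Fold and signal went in opposite directions across the members. The 51 peaks with a WT value of 3 or less had a median fold of 5.03 and a median width of 365 bp in the authors' deposited table. The 84 peaks with a WT value between 7 and 9 had a median fold of 1.91 and a median width of 2267 bp. The part of the selection by p in this was not tested. Among the 20 peaks at least 8-fold higher, 12 had a WT value under 3 and 6 were 2 kb or wider. Over all members the median width was 952 bp, against 1040 bp for the lower start-site peaks, with a longest peak of 9479 bp at Cyp1b1. Of the members, 284 (65.4%) touched the start site itself, 67 lay upstream and 83 downstream of it. The share touching was 61.1% among the lower start-site peaks.

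Protein-coding genes held 349 of the 434 peaks, long intergenic noncoding RNA genes 32, antisense genes 12, processed pseudogenes 9 and microRNA genes 6. The share of listed start-site peaks that was higher in KO was 18.6% for protein-coding genes and 27.4% for the long intergenic noncoding genes. C130071C03Rik, a long noncoding RNA gene, had the largest fold of all members at 20.5 in the authors' deposited table. Its peak of 2867 bp had a value of 8.36 in KO and 4.0 in WT, with an FDR of 0.0869. Mef2c, a MADS-box transcription factor of muscle and other lineages that lies nearby on chromosome 13, had 2 member peaks. The larger of them had 7.90 in KO and 4.96 in WT in the authors' deposited table (FDR 0.172).

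The members of smallest FDR came from several kinds of gene. Lonrf3, which encodes a RING-finger and Lon-domain protein and lies on the X chromosome, had 7.46 in KO and 6.10 in WT in the authors' deposited table, a 2.58-fold difference with an FDR of 0.00633. Pak3, a p21-activated kinase that acts downstream of Rac and Cdc42, had 5.13 in KO and 2.39 in WT (6.68-fold, FDR 0.0071) in the authors' deposited table. Kcnn4 encodes the intermediate-conductance calcium-activated potassium channel, which is known from proliferating vascular smooth muscle. It had 8.31 in KO and 5.26 in WT (8.28-fold, FDR 0.0107) in the authors' deposited table, over 2097 bp. Cdh3, the gene of the adhesion molecule P-cadherin, had 9.18 in KO and 6.03 in WT (8.82-fold, FDR 0.011) in the authors' deposited table. Ffar4, a receptor for long-chain fatty acids, had 8.46 in KO and 5.76 in WT (6.45-fold, FDR 0.0119) in the authors' deposited table. These 3 last peaks were both strong and steep, while the rest of the 15 smallest FDRs, which also take in Prr15, Phldb3, Tanc1 and Pcdh19, included folds down to 2.22 at Gsto2.

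Several of the largest folds were found where WT had little signal. Ankef1, an ankyrin-repeat and EF-hand protein gene, had 4.29 in KO and 0.22 in WT (16.8-fold, FDR 0.0349) in the authors' deposited table. Siae, a sialic acid acetylesterase gene, had 3.77 in KO and -0.21 in WT in the authors' deposited table, with an FDR of 0.0782. Such WT values lie at the bottom of the scale, where the authors' treatment of low counts bears on a fold, and no source used here gives it. Xylt1, the xylosyltransferase that starts the sugar chains of proteoglycans, differed from them. It had 8.32 in KO and 4.76 in WT over 2688 bp (11.9-fold, FDR 0.0201) in the authors' deposited table. Celf4, an RNA-binding splicing regulator best known from neurons, had 8.31 in KO and 4.54 in WT (13.6-fold, FDR 0.0227) in the authors' deposited table. Tspan8, a tetraspanin, had 9.32 in KO and 6.46 in WT (7.26-fold, FDR 0.0227) in the authors' deposited table and is on chromosome 10, where few members lay. Pcdhgb1, a clustered protocadherin, had 6.41 in KO and 2.63 in WT (13.7-fold, FDR 0.0446) in the authors' deposited table.

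The members with the highest H3K9ac levels in KO were of several kinds. Cyp1b1, a cytochrome P450 and a textbook target of the aryl hydrocarbon receptor, had 11.99 in KO and 10.91 in WT (2.11-fold, FDR 0.151) in the authors' deposited table. Aldh3a1, an aldehyde dehydrogenase induced through the same receptor, had 10.69 in KO and 9.30 in WT (2.64-fold, FDR 0.0392) in the authors' deposited table. Zbtb20, a zinc-finger repressor, had 10.59 in KO and 9.85 in WT (FDR 0.243), and Zmynd8, itself a reader of acetylated histones, had 10.42 in KO and 9.58 in WT at its stronger peak (FDR 0.211), both in the authors' deposited table. Cd14, a co-receptor for lipopolysaccharide, had 10.34 in KO and 9.50 in WT (FDR 0.231) in the authors' deposited table. Tnfrsf1b, the second receptor for tumour necrosis factor, had 10.17 in KO and 9.09 in WT (2.13-fold, FDR 0.0494) in the authors' deposited table. Cxxc5, Slc38a1, Nrn1 and Parp9 complete the 10 highest, with KO values between 9.88 and 10.26 in the authors' deposited table. Among these peaks of highest level the fold stayed under 3, and Aldh3a1 and Tnfrsf1b were the only ones of the 10 highest in KO with an FDR under 0.05.

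Of the 406 genes, 90 were on at least 1 of 27 lists of pathways, families and functions. Over all 2010 genes with a listed start-site peak, 20.2% had at least 1 that was higher in KO, and list counts are given beside that share. The lists were chosen with results of these data known, so a count is a description.

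**Figure D2:**
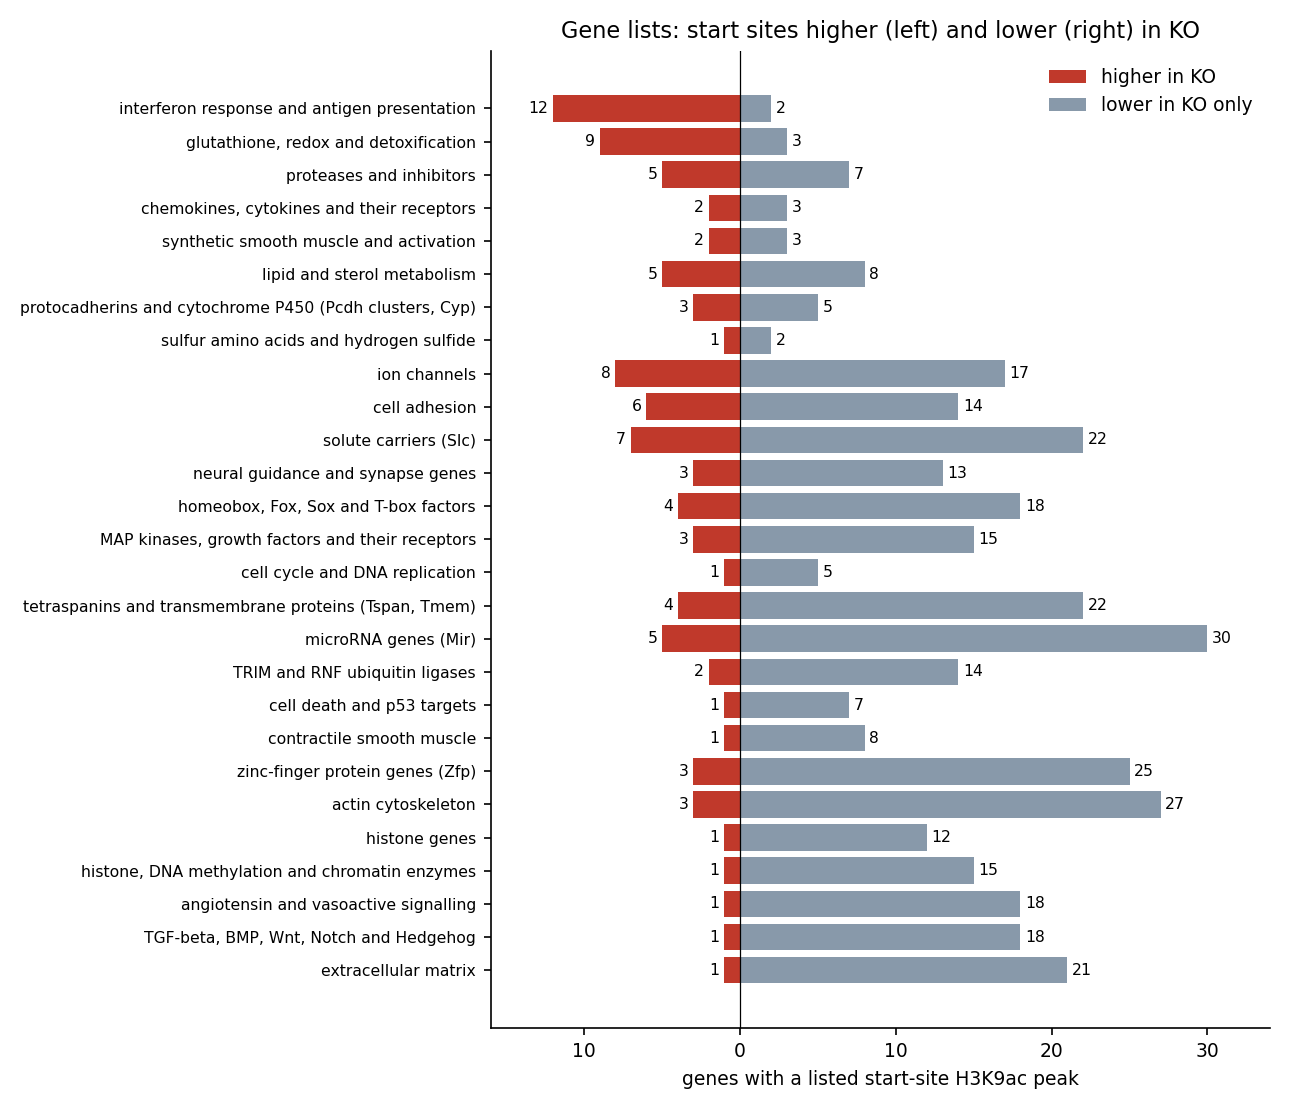
Genes with a listed start-site H3K9ac peak on each of 27 lists, with those that had a peak higher in KO to the left and those with lower peaks only to the right. Interferon genes (12 higher, 2 lower) and glutathione and detoxification genes (9 higher, 3 lower) are the only lists with more genes to the left, and extracellular matrix genes (1 higher, 21 lower) stand at the bottom.

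Interferon response and antigen presentation genes were mostly higher: 12 of the 14 with a listed start-site peak, or 85.7%, of 86 genes on the list. All 12 lie outside chromosomes 4 and 18, but they are not all separate loci, since the Gbp genes are neighbours and Parp9 and Parp14 both lie on chromosome 16. Other chromosomes had high shares too. Of listed start-site peaks, 29.4% were higher on chromosome 16, which also holds Mx2. The share was 39.3% on chromosome 11, with Irgm2 and Trim25, and 38.7% on chromosome 19, which holds AW112010. It was 11.5% on chromosome 3, with the Gbp genes, and 16.6% on chromosome 8, with Bst2. The part of the chromosome in the count was not tested. Of these 12 genes, 4 had an FDR under 0.05, and the median fold of their 13 peaks was 2.19, with a range of 1.59 to 12.5. Counted over listed peaks of any annotation, 14 genes of the list had a higher peak and 9 had lower peaks only. At start sites the 2 genes that were lower were Tapbp, an antigen-loading chaperone, with 4.39 in KO and 5.57 in WT (FDR 0.137), and Stat2, a transcription factor of the interferon pathway, with 2.84 in KO and 4.61 in WT (FDR 0.141), in the authors' deposited table.

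The strongest contrasts on the interferon list were at its effectors. Mx2, an interferon-induced GTPase gene annotated as a polymorphic pseudogene, had 8.73 in KO and 5.09 in WT over 5057 bp (12.5-fold, FDR 0.0333) in the authors' deposited table. AW112010, an interferon-inducible transcript annotated as noncoding, had 4.65 in KO and 1.01 in WT (12.5-fold, FDR 0.00704) in the authors' deposited table. Irgm2, an immunity-related GTPase, had 6.8 in KO and 4.18 in WT (6.19-fold, FDR 0.0568) at the stronger of its 2 peaks in the authors' deposited table. Parp14, a mono-ADP-ribosyltransferase, had 9.67 in KO and 8.35 in WT (2.50-fold, FDR 0.0245) in the authors' deposited table. Bst2 had 9.17 in KO and 8.05 in WT (2.19-fold, FDR 0.0408) in the authors' deposited table. Its peak of 3040 bp covered the window printed above. Trim25, the ubiquitin ligase that activates the RNA sensor RIG-I, had 8.09 in KO and 6.88 in WT (FDR 0.0692) in the authors' deposited table, and a window of the gene Gm11496 also lay under this peak. The guanylate-binding proteins Gbp2, Gbp3 and Gbp7 formed a run of 3 neighbouring peaks over 93.0 kb of chromosome 3. Their folds were 1.96, 1.93 and 1.82 in the authors' deposited table, with FDRs of 0.227, 0.255 and 0.238. Parp9, the partner of the ubiquitin ligase Dtx3l, whose own window lay under the same peak, had 9.88 in KO and 9.20 in WT (FDR 0.283) in the authors' deposited table. H2-Q4, a nonclassical class I gene of a family with near-identical copies, is uncertain because reads of such copies can be placed on one another.

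Glutathione, redox and detoxification genes were higher in KO at 9 of the 12 with a listed start-site peak, or 75%, and 7 of these 9 had an FDR under 0.05. Their 11 peaks had a median fold of 2.41 (range 1.69 to 9.65). Over listed peaks of any annotation the list had 16 genes with a higher peak and 9 with lower peaks only. These genes encode the transferases, dehydrogenases and transporters that conjugate, oxidise and export reactive compounds. Aldh3a1 and Abcc5 lie on chromosomes 11 and 16, where 39.3% and 29.4% of listed start-site peaks were higher. Aldh1a1, Gsto2 and Gstp1 lie on chromosome 19, where it was 38.7%. Slc7a11 and Gstm1 lie on chromosome 3, Gsta4 on chromosome 9 and Ugt1a6a on chromosome 1, where it was 11.5%, 13.4% and 11.8%. The part of the chromosome in this count was not tested. Aldh1a1, which makes retinoic acid from retinaldehyde, had 2 member peaks on either side of its start. The downstream one had 7.13 in KO and 3.86 in WT (9.65-fold, FDR 0.0394) and the upstream one 6.85 in KO and 5.57 in WT (2.41-fold, FDR 0.012), in the authors' deposited table. The window printed for Aldh1a1, with its single CpG pair, overlaps the end of the upstream peak and reaches into the gap between them.

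Glutathione S-transferases of 4 classes were among the members. Gsto2, of the omega class, had 8.07 in KO and 6.92 in WT (2.22-fold, FDR 0.00778) in the authors' deposited table. Gstm1, of the mu class, had 5.47 in KO and 3.04 in WT (5.39-fold, FDR 0.0102) in the authors' deposited table. Gstp1, of the pi class, had 6.19 in KO and 4.92 in WT (2.41-fold, FDR 0.0422) in the authors' deposited table. Gsta4, of the alpha class, had 7.01 in KO and 6.24 in WT (FDR 0.23) in the authors' deposited table. Several Gst genes have close copies, so reads may have been shared between them. The direction was not uniform in the family, since Gstm2 had 7.25 in KO and 8.01 in WT (FDR 0.258) and Gstt2 had 7.53 in KO and 8.42 in WT (FDR 0.0504), both lower in the authors' deposited table. Ugt1a6a, a glucuronosyltransferase, had 4.43 in KO and 1.66 in WT (6.82-fold, FDR 0.0335), and Abcc5, an exporter of conjugates, had 4.82 in KO and 2.21 in WT (6.11-fold, FDR 0.0395), in the authors' deposited table. Slc7a11, the cystine importer that feeds glutathione synthesis, had 6.89 in KO and 6.05 in WT (1.79-fold, FDR 0.29) in the authors' deposited table. An exon peak of the gene was lower, with 3.48 in KO and 5.19 in WT (3.27-fold, FDR 0.0553), in the authors' deposited table. By start site, Slc7a11 was the 1 higher gene of 3 on the sulfur amino acid and hydrogen sulfide list.

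**Figure D3:**
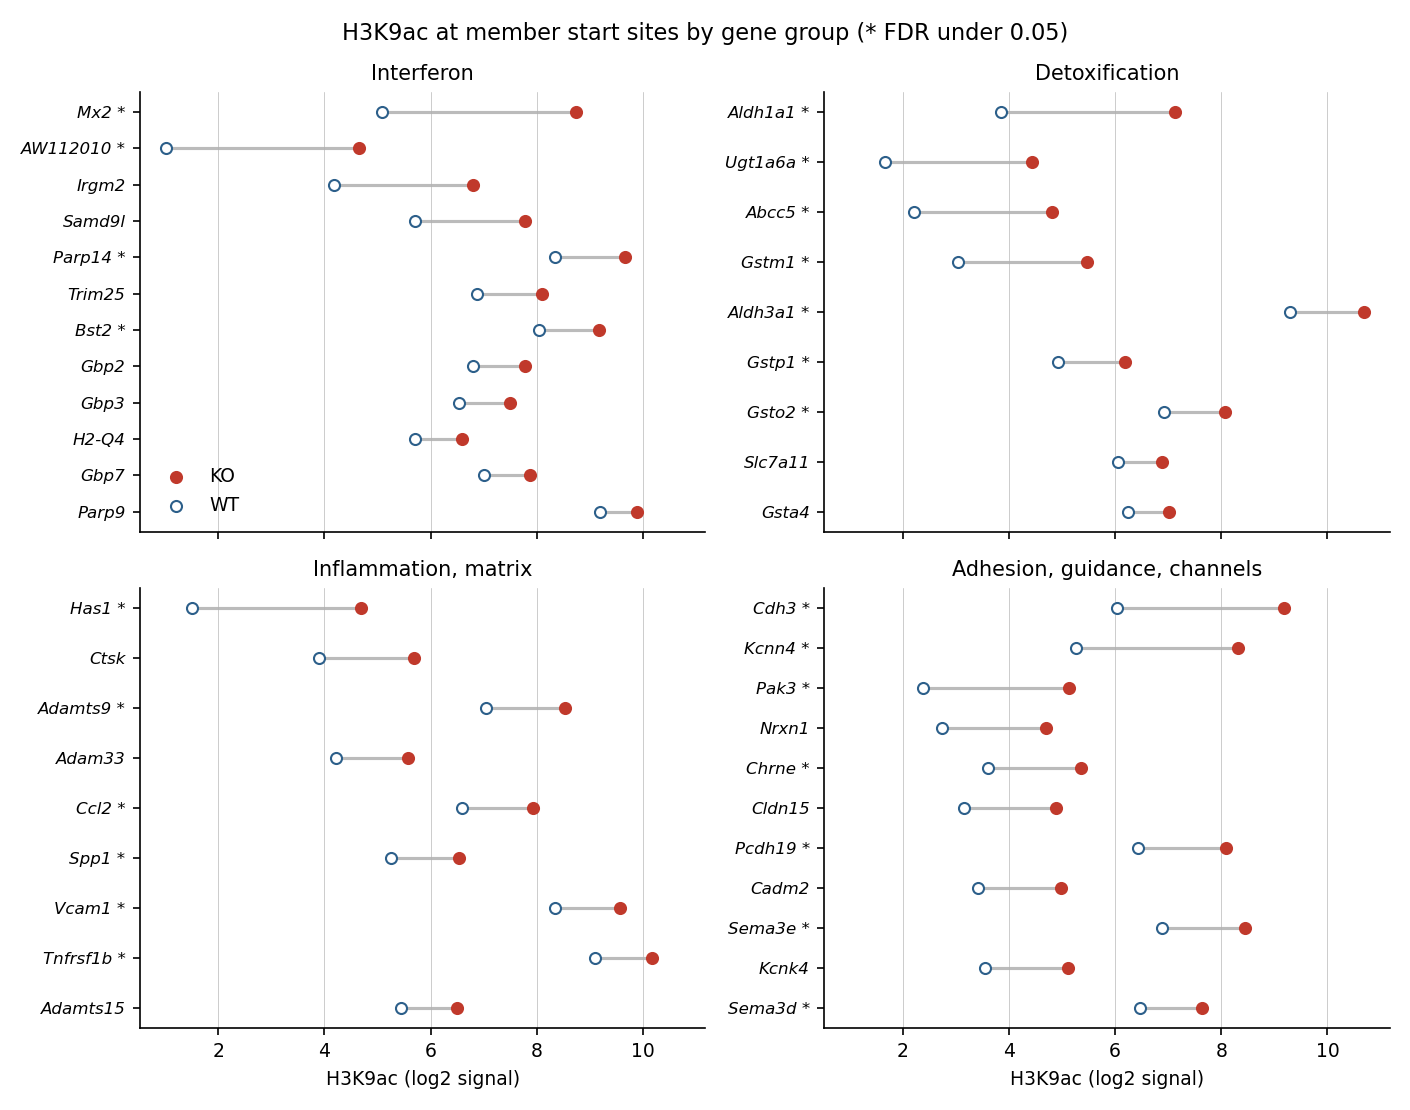
H3K9ac level (log2 signal) at member start sites in 4 gene groups, filled points for KO and open points for WT, with the steepest peak of each gene shown and an asterisk for an FDR under 0.05. Mx2, AW112010, Aldh1a1, Has1, Cdh3 and Kcnn4 show the widest gaps, and Parp9 and Gsta4 are among the narrowest.

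Inflammatory and adhesion genes that synthetic or activated smooth muscle is known to express appeared in small numbers. Ccl2, the chemokine that recruits monocytes, had 2 member peaks, of which the stronger had 7.92 in KO and 6.6 in WT (2.50-fold, FDR 0.0114) in the authors' deposited table. Vcam1, the endothelial and smooth muscle ligand of leukocyte integrins, had 9.57 in KO and 8.34 in WT over 4525 bp (2.35-fold, FDR 0.0121) in the authors' deposited table. Spp1 had 6.53 in KO and 5.25 in WT (2.43-fold, FDR 0.0278) in the authors' deposited table. On the chemokine and cytokine list 2 of 5 listed genes were higher (Ccl2 and Tnfrsf1b), and on the synthetic list 2 of 5 (Vcam1 and Spp1). Lower in the same lists were Lifr, Tnfrsf1a and Csf1, and Fgf2, Tnfrsf11b and Pdgfra. Tnfrsf1a, the first receptor for tumour necrosis factor, had 5.50 in KO and 6.59 in WT (FDR 0.0395) in the authors' deposited table, opposite in direction to Tnfrsf1b.

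Matrix genes were nearly absent from the members while matrix enzymes were not. Of 22 extracellular matrix genes with a listed start-site peak, 1 was higher in KO. This was Has1, a hyaluronan synthase, with 4.69 in KO and 1.5 in WT (9.13-fold, FDR 0.013) in the authors' deposited table, at a peak of 254 bp that began 596 bp into the gene. Of 12 protease and inhibitor genes, 5 were higher. Adamts9, a secreted protease that cleaves the proteoglycans versican and aggrecan, had 8.53 in KO and 7.04 in WT (2.81-fold, FDR 0.0433) in the authors' deposited table. Ctsk, the collagen-cleaving protease cathepsin K, had 5.68 in KO and 3.90 in WT (3.43-fold, FDR 0.0717) in the authors' deposited table. Adam33 and Adamts15, genes of further metalloproteases, had folds of 2.57 and 2.08 in the authors' deposited table, with FDRs of 0.0898 and 0.228.

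Adhesion and guidance genes were mixed. Of 20 cell adhesion genes, 6 were higher, with folds between 1.56 at Itgb5 and 8.82 at Cdh3. Pcdh19, a nonclustered protocadherin, had 8.08 in KO and 6.43 in WT (3.16-fold, FDR 0.0109) in the authors' deposited table, and a window of Gm26851 lay under the same peak. Of 16 neural guidance and synapse genes, 3 were higher. Sema3e and Sema3d, secreted semaphorins that repel growing axons and vessels, lie on chromosome 5. Sema3e had 8.45 in KO and 6.88 in WT (2.97-fold, FDR 0.0124) in the authors' deposited table. Sema3d had 7.64 in KO and 6.46 in WT (2.27-fold, FDR 0.0134) in the authors' deposited table.

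Ion channel genes were higher at 8 of 25, or 32.0%, with 2 of the 8 under an FDR of 0.05. Besides Kcnn4, that was Chrne, a subunit of the muscle nicotinic receptor, with 5.36 in KO and 3.61 in WT (3.36-fold, FDR 0.0304) in the authors' deposited table. The other 6 were Kcnj10, Clcn1, P2rx7, Kcnk4, Kcnn1 and Cacnb2, with folds between 1.77 and 2.95 in the authors' deposited table. P2rx7, an ATP-gated channel of inflammatory signalling, had 5.88 in KO and 4.59 in WT (FDR 0.152) in the authors' deposited table. Lipid and sterol genes were higher at 5 of 13, Cyp1b1, Vldlr, Ch25h and Nr1h3 among them, none with an FDR under 0.05. Nr1h3, the oxysterol receptor LXR alpha, had 8.89 in KO and 8.13 in WT (FDR 0.212), and Ch25h, which makes 25-hydroxycholesterol, had 8.69 in KO and 7.97 in WT (FDR 0.186), in the authors' deposited table.

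Several programmes of smooth muscle gave few members. Contractile smooth muscle genes were higher at 1 of 9, the actin-associated protein synaptopodin (Synpo), with 6.39 in KO and 5.12 in WT (2.43-fold, FDR 0.00862) in the authors' deposited table. It lies on chromosome 18, and the count was 0 without chromosomes 4 and 18. Actin cytoskeleton genes were higher at 3 of 30 (Pak3, Arhgap28 and Limk1), and growth factor and MAP kinase genes at 3 of 18 (Igfbp3, Igfbp4 and Nrp2). TGF-beta, BMP, Wnt, Notch and Hedgehog genes were higher at 1 of 19, Wnt16, and angiotensin and vasoactive genes at 1 of 19, Pde3b. Pde3b, a cyclic nucleotide phosphodiesterase, had 8.77 in KO and 7.01 in WT (3.39-fold, FDR 0.323) in the authors' deposited table. Histone and chromatin enzyme genes were higher at 1 of 16, Mbd1, which binds methylated DNA. The other lists had 1 of 6 (cell cycle, E2f2), 1 of 8 (cell death, Gsdmd), 1 of 13 (histone genes, H2ac4), 3 of 28 (Zfp genes) and 4 of 22 (homeobox, Fox, Sox and T-box factors). Solute carriers were higher at 7 of 29, tetraspanin and Tmem genes at 4 of 26, microRNA genes at 5 of 35, TRIM and RNF ligases at 2 of 16, and protocadherin-cluster and cytochrome P450 genes at 3 of 8. Among transcription factors, Nkx3-2, a homeobox repressor of skeletal development, had 8.31 in KO and 7.02 in WT (2.45-fold, FDR 0.0296) in the authors' deposited table. Foxf1, a forkhead factor of visceral and vascular mesenchyme, had 8.67 in KO and 7.61 in WT (FDR 0.151) in the authors' deposited table, and a window of Fendrr, a noncoding RNA read in the other direction, lay under its peak.

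Cell type markers on the same tables were too few to check the culture, because only differing peaks are listed. No start-site peak of the 8 smooth muscle markers was higher in KO. Tagln, encoding the calponin-related protein SM22, had 4.58 in KO and 5.69 in WT (FDR 0.239), and Lmod1, leiomodin, had 6.35 in KO and 7.58 in WT (FDR 0.0335), both lower in the authors' deposited table. Over listed peaks of any annotation, 2 of the 8 had a higher peak and 5 a lower one, with Acta2 in both counts. Smtn had 7.42 in KO and 6.46 in WT (FDR 0.0435) at a promoter peak 1 to 2 kb from a start, in the authors' deposited table. Of 7 leukocyte markers, Cd14 and Aif1 were higher at start sites and the other 5, Ptprc and Csf1r included, had no listed peak. Aif1 had 6.05 in KO and 5.32 in WT (FDR 0.322) in the authors' deposited table. No start-site peak of the endothelial, adipocyte, Schwann cell or epithelial markers was listed in either direction. Away from start sites, Pecam1, S100b and Cdh1 had higher peaks and Vwf and Lipe lower ones. Of the 6 fibroblast markers, Pdgfra was lower at a start site, with 5.69 in KO and 6.57 in WT (FDR 0.141), and Lum was higher at an intergenic peak. The part of other cells in the members' values was not tested.

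Most genes had 1 member peak (381), 22 had 2 and 3 had 3. Pafah2, an acetylhydrolase of platelet-activating factor, had 3 within 2.24 kb, with folds of 3.34, 2.39 and 1.57 in the authors' deposited table and the smallest FDR at 0.0426. Btg3, an antiproliferative gene, had 3 whose KO values were 5.55, 5.48 and 9.63 and whose WT values were 3.50, 3.44 and 8.52 in the authors' deposited table. The 2 weaker Btg3 peaks had FDRs of 0.0197 and 0.026 and about 4-fold differences (4.14 and 4.11), while the strong peak had 2.16 and an FDR of 0.187. Abr, a regulator of small GTPases, had 3, for which the authors' deposited table gives folds of 2.08, 1.67 and 3.16 and FDRs of 0.113, 0.175 and 0.323. Peaks of 1 gene share their DNA neighbourhood and are not separate observations.

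In 16 genes, 3.94% of the 406 with a higher start site and 0.988% of the 1620 with a lower one, 1 start site was higher in KO and another was lower. In 15 of the 16 the peaks were annotated to different transcripts, and the gap between opposite peaks had a median of 25.3 kb. Lmo7, a LIM-domain protein of cell junctions, had 6.33 in KO and 5.14 in WT at 1 start (FDR 0.0767) and 7.93 in KO and 9.24 in WT at a start 139 kb away (FDR 0.0542) in the authors' deposited table. Igfbp4, which binds insulin-like growth factors, held the closest pair, 87 bp apart. The peak across its start had 8.02 in KO and 6.8 in WT (FDR 0.055), and the peak just upstream had 4.19 in KO and 6.05 in WT (FDR 0.0137), in the authors' deposited table. Frmd4b had 2 peaks each way, and Aldh1a1 had a further peak 108 kb from its main start that was lower, with 5.67 in KO and 6.36 in WT (FDR 0.253) in the authors' deposited table. No gene of the 16 had an FDR under 0.05 in both directions, and in 7 both peaks touched a start.

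**Figure D4:**
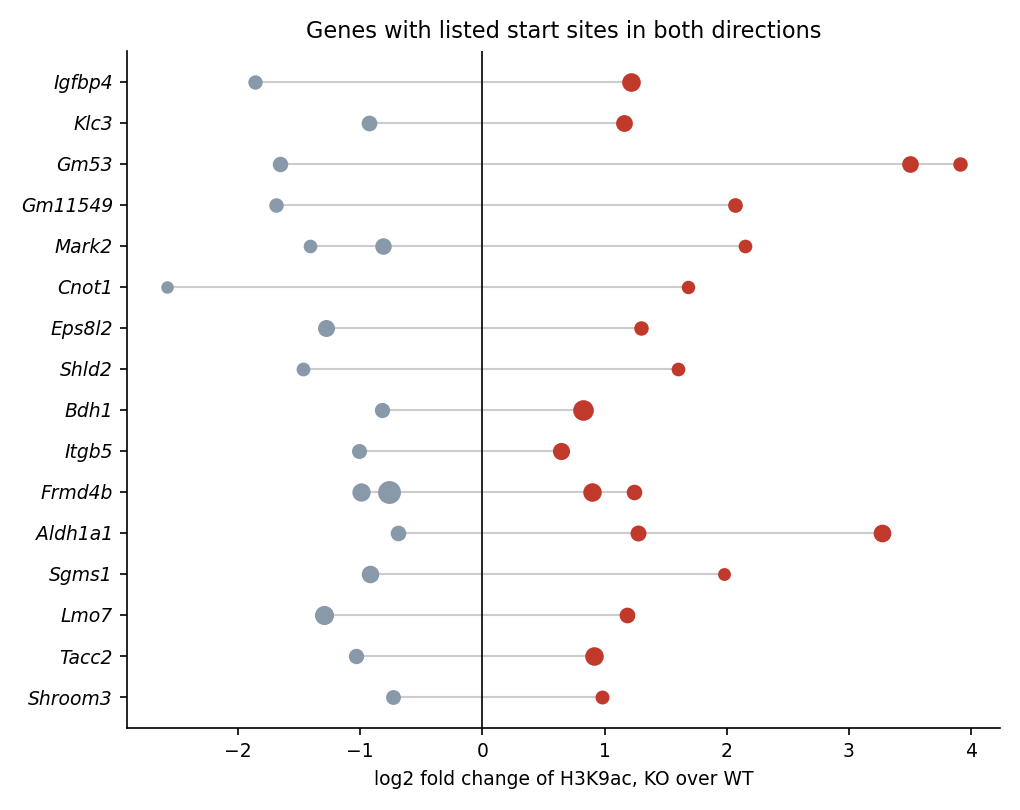
Log2 fold change of H3K9ac (KO over WT) at each listed start-site peak of the 16 genes with peaks in both directions, larger points for wider peaks, ordered by the gap between opposite peaks. Igfbp4 at the top has opposite peaks 87 bp apart, and Gm53 has the highest values on the right.

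Listed peaks elsewhere in the members' genes leaned the same way as their start sites. Of the 390 genes with higher start sites only, 86 also had 127 listed peaks outside the first kilobase, and 83 of these, or 65.4%, were higher in KO. In the 1604 genes with lower start sites only, 60 of 723 such peaks, or 8.30%, were higher. In introns and exons the shares were 70.3% of 64 peaks and 8.81% of 352. These peaks were not used by the rule, but they come from the same samples and lie near the members, so no test was made. Tnfrsf1b had 5 further listed peaks, all higher, and the authors' deposited table gave 3 of them FDRs under 0.05. The steepest of them, an intron peak, had 5.08 in KO and 3.12 in WT (3.89-fold, FDR 0.0293) in the authors' deposited table. Hif1a, the oxygen-regulated transcription factor, had 3 further peaks, all higher, with FDRs between 0.119 and 0.318 in the authors' deposited table. Its member peak had 4.83 in KO and 3.26 in WT (FDR 0.165) in the authors' deposited table. Slc38a1, a glutamine transporter, had 3 higher and 2 lower. Others went against their start sites: Zmynd8 had 1 higher and 3 lower, and Tanc1 had 2, both lower. The smaller FDR of the 2 Tanc1 peaks was 0.00628 in the authors' deposited table.

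The members were spread unevenly over chromosomes. On chromosome 4, 42 of 65 listed start-site peaks, or 64.6%, were higher in KO, and on chromosome 10 it was 6 of 156, or 3.85%. Chromosomes 11, 19, 18 and 5 had 39.3%, 38.7%, 38.0% and 36.2%, and chromosomes X, 7 and 14 had 8.06%, 8.70% and 8.97%. Of the listed peaks away from start sites, 62.0% of 166 were higher on chromosome 4, 69.8% of 189 on chromosome 18, 13.5% of 370 on chromosome 10 and 5.41% of 74 on chromosome X. Counting neighbouring start-site peaks of 1 direction within 100 kb once gave 61.0% on chromosome 4 and 6.74% on chromosome 10. The listed H3K9me3 peaks were also split unevenly, but not in the same order. They were 79.2% higher on chromosome 4 and 46.0% on chromosome 10, yet 80.7% on chromosome X, 73.4% on chromosome 7, 46.5% on chromosome 19 and 33.5% on chromosome 16. The part of the chromosome in any gene's value was not tested.

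**Figure D5:**
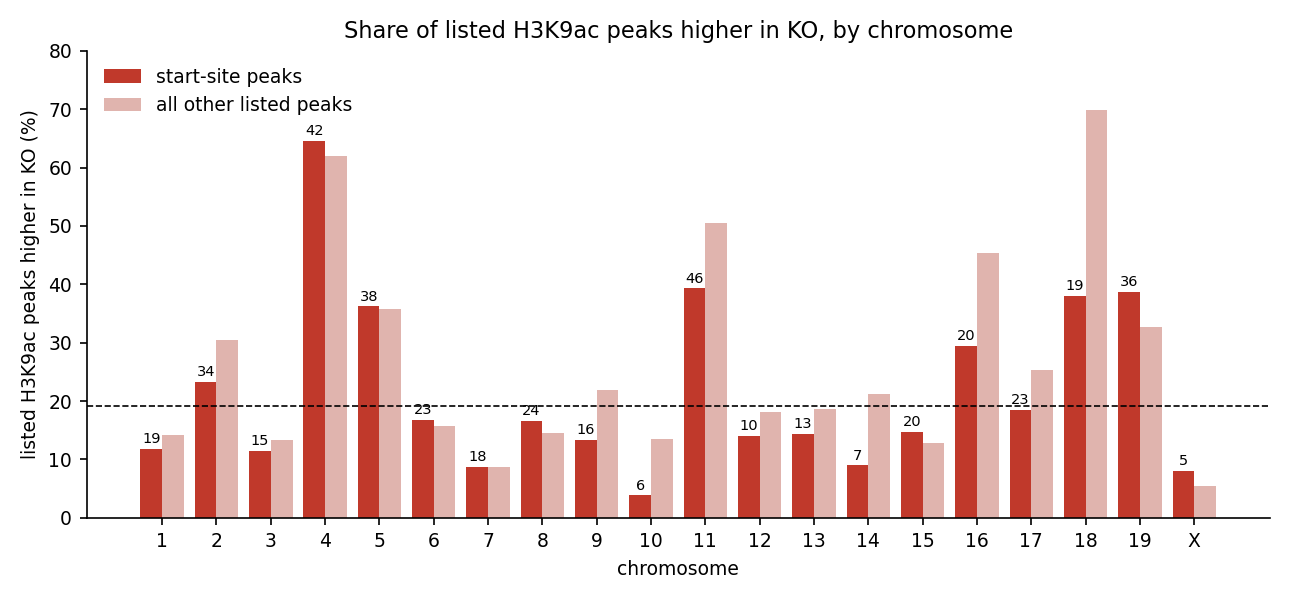
Percentage of listed H3K9ac peaks that were higher in KO on each chromosome, dark bars for start-site peaks (with the number of members above) and light bars for all other listed peaks, and a dashed line at 19.2% for all start-site peaks. Chromosome 4 stands at 64.6% and chromosome 10 at 3.85%.

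Members also lay near one another. For 64 of the 434 peaks the nearest listed start-site peak was within 10 kb, and in 54 cases (84.4%) it was higher too. Most of these were peaks of the same gene. With a neighbour of another gene within 10 kb, 10 of 17 were higher, against 6 of 121 for the lower start-site peaks. The 434 peaks formed 380 runs, of which 8 held 3 or more peaks. The run with the most peaks, on chromosome 16, held 5 peaks of Btg3 and E330011O21Rik over 113 kb. A run of 4 peaks on chromosome 18, which took in Ecscr and Cxxc5, was longer at 153 kb. One of 3 peaks on chromosome 15 joined Slurp1 and Lypd2, secreted or membrane-bound proteins of the Ly6 family, and one on chromosome 9 joined Pde4a, which degrades cyclic AMP, and S1pr5, a sphingosine 1-phosphate receptor.

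The other marks rarely met the members. H3K9me3, the mark of heterochromatin, had a listed promoter peak at 5 of the 406 genes, or 1.23%, against 17 of the 1620 genes with a lower start site, or 1.05%. Of the 25 listed H3K9me3 peaks of 21 member genes, 7 were higher in KO and 18 lower, a share of 28% higher against 61% of all listed H3K9me3 peaks. The lower ones include those of Rerg, Atf7ip and Tmtc1 on chromosome 6. They also include those of Abi3bp, Btg3, Cadm2 and Morc1 on chromosome 16, where Gm49704 was higher. Of all listed H3K9me3 peaks, 27.6% were higher on chromosome 6 and 33.5% on chromosome 16. The part of the chromosome in this split was not tested. All 25 were listed by the authors at a p under 0.05, but none had an FDR under 0.05, since the deposited table gives each an FDR of 1. The H3K9ac and H3K9me3 peaks overlapped at 2 members. Isyna1, which makes inositol phosphate, had higher values of both marks: the H3K9me3 peak had 4.12 in KO and 1.28 in WT, and the H3K9ac peak 6.28 in KO and 5.15 in WT (FDR 0.071), in the authors' deposited tables. Rerg, a Ras-like GTPase, had opposite values: the H3K9me3 peak had 0.81 in KO and 3.82 in WT, and the H3K9ac peak 4.81 in KO and 2.48 in WT (FDR 0.0756), in the authors' deposited tables. Atf7ip, Auts2 and Cadm2 were the other genes, each listed with a lower H3K9me3 value in KO at a promoter peak that did not overlap the H3K9ac peak.

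H3K4me3, the trimethyl mark of active start sites, has no values per genotype in the authors' deposited table, so a listed peak has no direction. Since only a selection of peaks is listed, a gene without a listed peak may still carry the mark. A listed H3K4me3 promoter peak was found at 7 of the 406 genes, or 1.72%, and at 68 of the 1620 genes with a lower start site, or 4.20%. These 7 were C130071C03Rik, Casz1, Entpd1, Gins1, Kcnn1, Sulf1 and Zbtb20. An overlap by at least 1 bp with any listed H3K4me3 peak occurred at 1 member and at 55 of the 1826 lower peaks. The member was that of C130071C03Rik, where 338 bp were shared. The H3K4me3 peak that overlapped it was not the promoter peak listed for that gene, which lay outside the member.

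The members just inside the rule were Erich6, Tuba3b and Oplah, for which the authors' deposited table gives log2 fold changes of 0.62 each. Just outside it, on the lower side, were Zfp27 at -0.56, Serpinb8 at -0.57 and Dnm3 at -0.58 in the authors' deposited table. Nothing was listed in between. On the distance rule, the farthest members lay 984 bp (Morn3), 975 bp (Blcap) and 968 bp (Pafah2) from a start site, and the nearest higher peaks left out lay 1010 bp (Kalrn), 1012 bp (Gm8934) and 1019 bp (Adck5) away.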

How the data were processed

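Aortic smooth muscle cells in primary culture were profiled by ChIP-seq for H3K9ac, H3K9me3 and H3K4me3. CASAVA 1.4 and mm9 are named in the submitters' processing notes. Which aligner, peak caller, normalisation and test the authors used was not given in the sources used here, nor how low counts were treated. Per the file headers, the authors deposited for H3K9ac and H3K9me3 a log2 signal per genotype, a log2 fold change (KO over WT), a p-value and an FDR for each listed peak, with its gene and distance to a start site. No value per sample was used.

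Peaks and genes are in 1 coordinate system: 462 of 709 listed H3K9ac peaks of 2 kb or more (65.2%), against 427 of 2529 under 500 bp, lay within 1 kb of an annotated start. These positions matched GRCm38 windows and are taken to be GRCm38, not mm9.

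Promoter windows are RefSeq's, and none on chromosome 18 was printed. Members were selected and counted with Python 3.11.15, numpy 2.4.6, pandas 2.3.3 and scipy 1.17.1. Lists count genes, and a gene with peaks in both directions counts as higher. Group values on the log2 scale, subtracted, matched the authors' log2 fold change to within 0.01. The helper functions were tested on simulated data. The tests planned for counts or values per sample were not possible, and no test across peaks was made. Named genes, leaving out number-named ones, were the 15 of smallest FDR, the 10 of largest fold, the 10 of highest KO and WT value, those with several peaks, examples of each list, those with other marks and those at the limits of the rule. C130071C03Rik, Ifit1bl1 and the genes of the further groups were chosen after their values were seen. The members and lists were chosen with earlier results of these data known. Some genes are not reported here.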

Additional observations from a re-analysis of the deposited data

How the results depend on the processing

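The number of higher start-site peaks (434) was 98 with an FDR under 0.05, 217 with a p under 0.01, 284 where the peak touches the start site and 755 for promoters up to 3 kb. It stayed within 1.5 times with a fold minimum, a signal minimum, 1 peak per gene, merged neighbours, or without chromosomes 4 and 18. Their share of start-site peaks (19.2%) was 23.3% with an FDR under 0.05, 21.7% with a p under 0.01, 21.4% at a log2 fold change of at least 1, 17.4% without chromosomes 4 and 18 and 23.1% with neighbours merged. The median fold and width stayed within the interquartile range of the members under every alternative run for them. Genes with an H3K9me3 promoter peak (5) were 2 by overlap and 21 by any annotation. Those with H3K4me3 (7) were 1 by overlap, at a peak other than the promoter peak listed for that gene. Genes with opposite start sites (16) were 0 with both FDRs under 0.05 and 7 with both peaks touching the start. Without chromosomes 4 and 18, the higher count of 21 of 27 lists stayed within 1.5 times, and of 7 lists with an FDR under 0.05. Over listed peaks of any annotation it did so for 4 lists and moved for 23. The share, list and opposite-site alternatives were chosen after seeing the data. No paired analysis was possible because the tables give no value per sample. For the same reason leaving out replicates and changing a pseudocount could not be run, and the CpG comparison was not run because too few genes had a window. The depth behind each value is unknown.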

Other observations

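Further innate immune genes were found among the higher start sites outside the lists. These 18 genes were chosen after their values were seen, so their number is no evidence of a direction, and 2 of them had an FDR under 0.05. Ifit1bl1, a member of the interferon-induced IFIT family, had 4.97 in KO and 2.04 in WT (7.62-fold, FDR 0.0195) in the authors' deposited table. Apobec3, a cytidine deaminase that restricts retroviruses, had 9.23 in KO and 8.02 in WT (2.31-fold, FDR 0.0267) in the authors' deposited table. Rtp4, an interferon-induced receptor transporter, had 8.36 in KO and 5.71 in WT (6.28-fold, FDR 0.0909) in the authors' deposited table. The RNA helicases Ddx60 and Dhx58 had folds of 3.03 and 1.75 in the authors' deposited table, with FDRs of 0.302 and 0.288. The 18 peaks lay on 11 chromosomes with a median fold of 2.13.

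Genes best known from epithelia formed another set, of 13 genes with 15 peaks. All were picked from the higher start sites after the values were seen, so neither the number nor the direction is evidence, and 1 of the 13, Eps8l2, also had a lower start site. Besides Cdh3 and Tspan8, Rhbdl2, a rhomboid protease, had an FDR under 0.05, with 7.67 in KO and 6.46 in WT (2.31-fold, FDR 0.0299) in the authors' deposited table. Grhl2, an epithelial transcription factor, had 4.69 in KO and 3.05 in WT (FDR 0.258), and Krt19, a simple-epithelium keratin, had 6.19 in KO and 5.42 in WT (FDR 0.295), in the authors' deposited table. Cdh1, the gene of E-cadherin, had no listed start-site peak, but an intron peak had 7.09 in KO and 5.78 in WT (FDR 0.0128) in the authors' deposited table. The defining epithelial markers Epcam, Krt8 and Krt18 had no listed peak.

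Gene Ontology terms came with the deposited annotation. Of 121 terms with at least 30 genes among the listed start-site genes, the terms with the largest shares higher in KO were immune system process (15 of 32), innate immune response (13 of 31), metabolic process (17 of 47) and inflammatory response (13 of 37). The smallest shares were for extracellular matrix (3 of 38), mitochondrial inner membrane (3 of 36) and focal adhesion (5 of 58). Among all 2010 genes with a listed start-site peak, 20.2% had at least 1 that was higher. The terms share genes and were ranked after the values were seen, with no test, and those named are the extremes of the ranking.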
